A study of Sus scrofa with 2 samples.

Results

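In pig muscle, 5 genes of protein folding and degradation in the endoplasmic reticulum were followed: HSPA5, PDIA3, SEL1L, DNAJB11 and CRELD2. They were taken by symbol from the 27987 entries of the deposited expression table, where each of the 5 symbols stood on 1 entry. The genes were chosen by their measured ratios between the same 2 libraries: SEL1L and PDIA3 were the highest and DNAJB11 and CRELD2 the lowest of an earlier list of endoplasmic reticulum stress genes, and HSPA5 was added with its value known. Their ratios are therefore given as a description and no test was made on them. All 5 had a mean level of at least 1 RPKM, the minimum used for the gene counts. RPKM is the number of reads scaled to the length of the gene and to the total of the library, so levels of different genes can be set side by side.

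The tissue was the back muscle longissimus dorsi of barrows (castrated male pigs) of the cross DLY, bred from Duroc boars and Yorkshire-Landrace sows. In the heat group, H30, 8 pigs lived at a constant 30 °C for 21 days, and in the control group, CON, 8 pigs lived at a constant 22 °C for the same time. The 16 pigs weighed 79.0 ± 1.5 kg and came from 8 litters; the labels do not say what the ± stands for. Each group has 1 messenger RNA library, and the labels do not say whether it holds RNA of 1 pig or of a pool. With 1 library per group there is no spread between animals and no test, and the effect of temperature cannot be told apart from that of the pigs, their handling or the library. The intervals below are 95% intervals of counting error only, and since the labels describe no molecular identifiers, copies made by PCR may count as separate reads.

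Proteins that enter the endoplasmic reticulum are folded there by chaperones and enzymes that form disulfide bonds, and chains that fail to fold are pulled back to the cytosol and degraded by the proteasome. When unfolded chains build up, sensors in the membrane start the unfolded protein response, which raises the transcription of chaperones and of degradation genes. In a muscle fibre most of this membrane system is sarcoplasmic reticulum, the calcium store of contraction, and fibroblasts between the fibres use the same machinery to make collagen. HSPA5 (BiP) is the main chaperone of the compartment and holds the sensors inactive, and DNAJB11 is one of its J-domain partners. PDIA3 (ERp57) is a disulfide isomerase that works on glycoproteins held by calnexin and calreticulin. SEL1L is the scaffold of the membrane ubiquitin ligase SYVN1 (HRD1), and CRELD2 is a small secreted protein whose gene is induced by endoplasmic reticulum stress.

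The estimated library totals, recovered from the steps between deposited values, were 22863584 reads in H30 and 23608242 reads in CON. Fibre genes were abundant, led by the skeletal muscle actin ACTA1 at 65219 RPKM in H30 and 68749 RPKM in CON. Over the 13191 genes with a mean of at least 1 RPKM, the median log2((H30 RPKM + 1)/(CON RPKM + 1)), called the log2 ratio below, was 0.05, and 58.8% of genes lay above 0. A gene was counted as higher or lower when this ratio passed 1.2-fold, a size that 17.5% of all genes passed on the higher side and 10.5% on the lower side. Among the 6990 genes with a symbol, which are the ones the lists below could match, the shares were 12.3% higher and 6.68% lower. These splits depend on the scaling. With log2 ratios centred on the median of all genes, 13.2% of all genes passed 1.2-fold on the higher side and 13.8% on the lower, and 8.23% and 9.71% of genes with a symbol. PDIA3 (0.32) and SEL1L (0.34) still passed it when centred.

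PDIA3 and SEL1L were higher in the 30 °C library, while HSPA5, DNAJB11 and CRELD2 lay slightly lower with counting intervals that hold no difference. Of the 5 genes, 2 thus passed 1.2-fold on the higher side and 0 on the lower side, which says nothing beyond how they were chosen.

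HSPA5 (ENSSSCG00000005601) stood at 37.5 RPKM in H30, against 38.9 RPKM in CON. These levels rest on at least 1763 reads in H30 and 1888 reads in CON. The ratio of H30 to CON was 0.964, with a counting interval of 0.903 to 1.03. The log2 ratio was -0.05, and 67.7% of all genes had a ratio at least as high. In the RefSeq annotation of the Sscrofa11.1 assembly its neighbours are RABEPK and GAPVD1. RABEPK was at 1.24 RPKM in H30 and 2.46 RPKM in CON, with a counting interval of the ratio (0.263 to 0.920) below 1. GAPVD1 was at 7.60 RPKM in H30 and 7.12 RPKM in CON (0.967 to 1.18).

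DNAJB11 (ENSSSCG00000011798), the J-domain partner that hands unfolded chains to HSPA5, was at 6.51 RPKM in H30 and at 7.42 RPKM in CON. At least 277 reads in H30 and 326 reads in CON support the values. The ratio was 0.877 (0.745 to 1.03) and the log2 ratio -0.16, and 17.9% of all genes were at or below it. In the RefSeq annotation of the Sscrofa11.1 assembly, one end of DNAJB11 overlaps TBCCD1, and without strand information the reads of the shared stretch cannot be told apart. TBCCD1 itself was at 2.84 RPKM in H30 and 2.46 RPKM in CON, with a counting interval of the ratio (0.928 to 1.44) that holds 1. So does the interval of the neighbour AHSG, at 0.211 RPKM in H30 and 0.262 RPKM in CON (0.254 to 2.42).

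PDIA3 (ENSSSCG00000004700) was at 47.1 RPKM in H30, against 36.1 RPKM in CON. It had at least 1640 reads in H30 and 1299 reads in CON, and the ratio was 1.304 (1.211 to 1.403). Its log2 ratio of 0.37 was reached or passed by 9.71% of all genes. PDIA3 was thus the one abundant gene of the 5 that differed beyond counting error. The 5 genes summed to 100.9 RPKM in H30 and 90.8 RPKM in CON, and the difference of PDIA3 alone was 10.96 RPKM. The neighbours of PDIA3 in the Sscrofa11.1 annotation differed in opposite directions. CATSPER2 was at 2.21 RPKM in H30 and 1.58 RPKM in CON, with an interval above 1 (1.03 to 1.91). ELL3 was at 1.22 RPKM in H30 and 1.93 RPKM in CON, with an interval below 1 (0.434 to 0.914).

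SEL1L (ENSSSCG00000002414), on which the ligase SYVN1 depends for its stability, was at 6.89 RPKM in H30, against 5.04 RPKM in CON. The levels rest on at least 229 reads in H30 and 173 reads in CON. The ratio was 1.37, with a wider interval of 1.12 to 1.67 that holds the ratio of PDIA3. The log2 ratio was 0.39, and 9.09% of all genes were at least as high.

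CRELD2 (ENSSSCG00000000981) was the scarcest of the 5, at 2.91 RPKM in H30 and 3.35 RPKM in CON. With at least 100 reads in H30 and 119 reads in CON, the ratio of 0.868 has an interval of 0.658 to 1.14, so no difference was detectable at this depth. The log2 ratio was -0.16. Its neighbour in the Sscrofa11.1 annotation, the mannosyltransferase gene ALG12, was at 3.14 RPKM in H30 and 3.45 RPKM in CON, a ratio whose interval of 0.747 to 1.11 also holds 1.

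**Figure D1:**
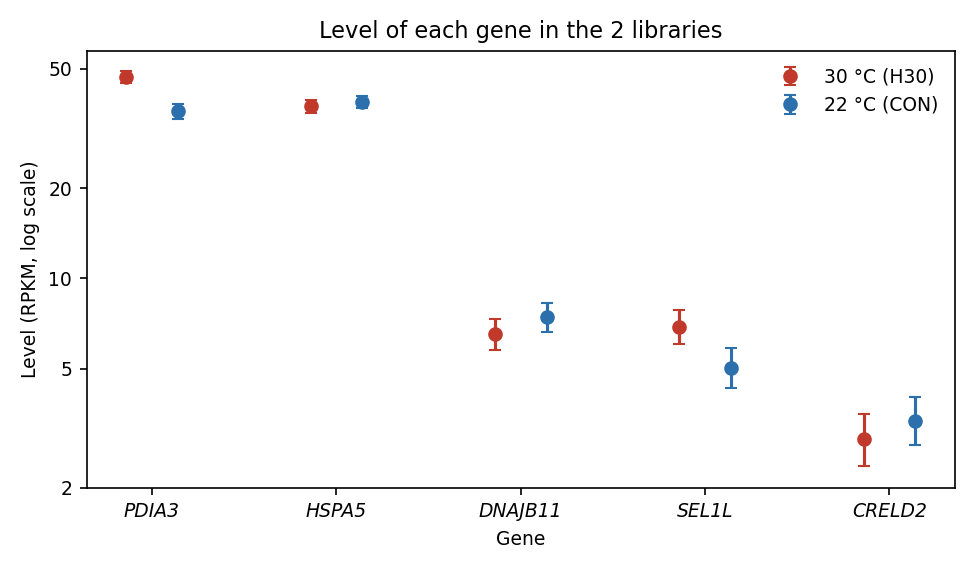
Level of each gene in RPKM (log axis) in the H30 library (red, left) and the CON library (blue, right), with bars for the 95% Poisson interval of the reads. PDIA3 stands at 47.1 RPKM in H30 and 36.1 RPKM in CON with bars that do not overlap, and the bars of HSPA5, DNAJB11 and CRELD2 overlap between libraries.

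The order of levels was not the same in both libraries. In H30 it ran PDIA3, HSPA5, SEL1L, DNAJB11, CRELD2, and in CON it ran HSPA5, PDIA3, DNAJB11, SEL1L, CRELD2. The counting intervals of neighbours overlap for SEL1L (6.03 to 7.84 RPKM) and DNAJB11 (5.76 to 7.32 RPKM) in H30, and for HSPA5 (37.2 to 40.7 RPKM) and PDIA3 (34.2 to 38.1 RPKM) in CON. The scarce CRELD2 was last in both.

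The disulfide isomerase PDIA3 had 1.25 times the level of the chaperone HSPA5 in H30 and 0.928 times its level in CON. The ratio of these ratios was 1.35, with a counting interval of 1.22 to 1.49. SEL1L had 1.06 times the level of DNAJB11 in H30 and 0.680 times in CON, a ratio of ratios of 1.56 (1.198 to 2.03). HSPA5 stood at 5.76 times the level of DNAJB11 in H30 and 5.24 times in CON (ratio of ratios 1.10, 0.921 to 1.31). Of the 10 pairs among the 5 genes, the interval excluded 1 for the 6 that join PDIA3 or SEL1L with one of the other three, and held 1 for the remaining 4. The pairs share genes and were formed from genes chosen for these ratios, so the count is a description.

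Around HSPA5, the chaperone list held 14 measured genes of 19 listed, all 14 that were matched. Their median log2 ratio was 0.08, with 8 above 0, and 2 passed 1.2-fold on the higher side and 1 on the lower (1 and 2 when centred). Among genes with a symbol the shares were 12.3% higher and 6.68% lower (8.23% and 9.71% when centred). SIL1, a nucleotide exchange factor that releases HSPA5 from its substrates, had the highest ratio of the list, at 4.12 RPKM in H30 and 2.38 RPKM in CON. It rests on at least 47 reads in H30 and 28 reads in CON, so its ratio of 1.73 has the wide interval 1.06 to 2.87, which may be too wide. HYOU1, the large exchange factor, was at 5.65 RPKM in H30 and 5.08 RPKM in CON, with an interval that holds 1.

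Of the measured J-domain genes of the list, DNAJB9, DNAJC3, DNAJC10, SEC63 and DNAJC1 had ratios above 1, and DNAJB11 and DNAJC25 below 1. The intervals of DNAJC10 (1.04 to 1.21) and SEC63 (1.03 to 1.24) lay above 1, and that of DNAJC1 (0.897 to 1.18) held 1. DNAJB9, which brings HSPA5 to the sensor ERN1, was at 19.5 RPKM in H30 and 16.0 RPKM in CON (ratio 1.22, 1.10 to 1.35). DNAJC3, which inhibits the kinase EIF2AK3, was at 6.84 RPKM in H30 and 5.61 RPKM in CON (1.22, 1.02 to 1.46), a log2 ratio of 0.25 that stays under 1.2-fold with the pseudocount. DNAJC25 was the lowest gene of the list, at 4.25 RPKM in H30 and 5.40 RPKM in CON, with an interval of 0.581 to 1.06. CNPY3, a folding factor of Toll-like receptors, came next at 6.51 RPKM in H30 and 8.00 RPKM in CON. HSP90B1, the other abundant chaperone of the compartment, was at 31.8 RPKM in H30 and 27.5 RPKM in CON. Its ratio of 1.16 (1.08 to 1.24) stayed under 1.2-fold, and HSPA5 itself was the list's most abundant gene. SDF2L1 and MANF, both induced with HSPA5, are not analysed here.

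**Figure D2:**
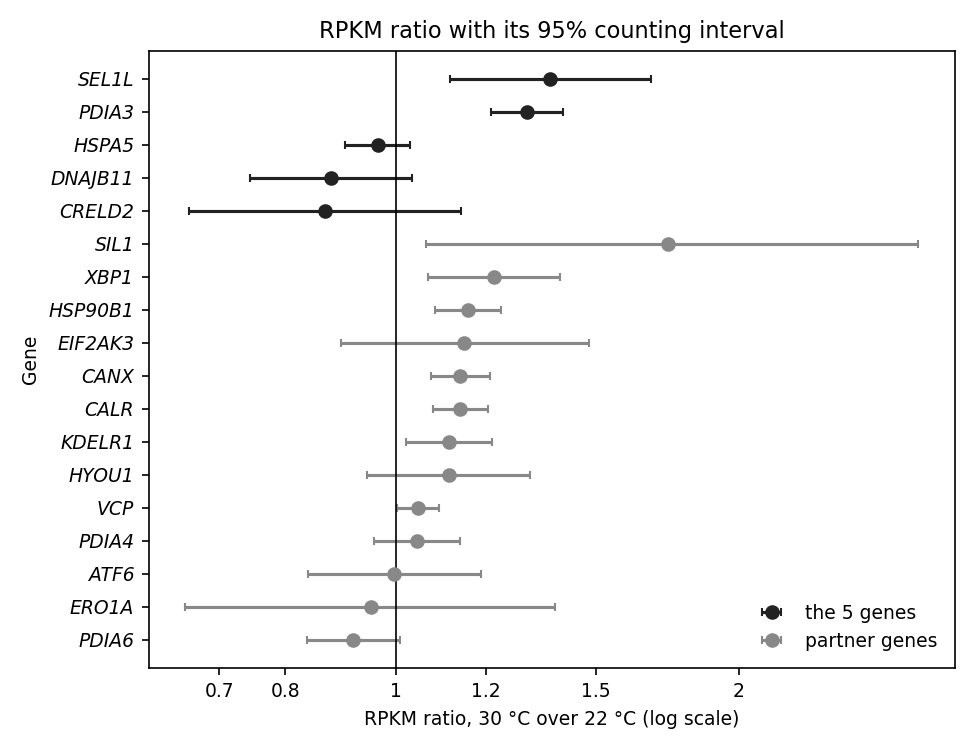
RPKM ratio of H30 to CON (log axis) with its 95% counting interval for the 5 genes (black) and the 13 matched partner genes (grey). SEL1L (1.37) and PDIA3 (1.304) lie to the right of 1 with their whole intervals, while the intervals of HSPA5, DNAJB11 and CRELD2 hold 1.

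PDIA3 works with the lectins calnexin and calreticulin, which were higher in H30 by less than 1.2-fold. CALR was at 60.2 RPKM in H30 and 52.9 RPKM in CON (ratio 1.14, 1.08 to 1.204), and CANX was at 23.9 RPKM in H30 and 21.0 RPKM in CON (1.14, 1.07 to 1.21). UGGT1, the enzyme that re-tags unfolded glycoproteins for another round, was at 2.65 RPKM in H30 and 1.65 RPKM in CON (1.60, 1.23 to 2.11). It was the one of 11 measured genes of this list at least 1.2-fold higher, and 0 were lower by as much. The shares of genes with a symbol were 12.3% higher and 6.68% lower. MOGS, the first trimming glucosidase, was at 3.86 RPKM in H30 and 3.07 RPKM in CON. PRKCSH, a subunit of the second, was at 14.8 RPKM in H30 and 16.4 RPKM in CON, and malectin, MLEC, at 48.0 RPKM in H30 and 50.9 RPKM in CON. The list median was 0.03, below that of all genes.

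Among disulfide and proline isomerases PDIA3 had the highest log2 ratio of 22 measured genes, which follows in part from how it was chosen. The median was 0.04, and 4 genes passed 1.2-fold on the higher side and 3 on the lower, while PDIA3 was the 1 higher gene left, beside 3 lower, when centred. For genes with a symbol the shares were 12.3% higher and 6.68% lower (8.23% and 9.71% when centred). The first place of PDIA3 depends on the pseudocount. PDIA5, at 2.54 RPKM in H30 and 1.94 RPKM in CON, had an RPKM ratio of 1.312 (0.996 to 1.73), against 1.304 for PDIA3. Its log2 ratio of 0.27 also passed 1.2-fold, uncentred. PDIA4 was at 15.0 RPKM in H30 and 14.4 RPKM in CON (ratio 1.04, 0.958 to 1.14), and PDIA6 was at 20.5 RPKM in H30 and 22.3 RPKM in CON (0.918, 0.836 to 1.01). TMX2, a membrane-bound thioredoxin relative, was next to PDIA3 by log2 ratio, at 18.5 RPKM in H30 and 15.0 RPKM in CON (1.24, 1.11 to 1.38). ERO1A, the oxidase that recharges the isomerases, was at 3.50 RPKM in H30 and 3.69 RPKM in CON. P4HB, the founding member of the family, is not analysed here.

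The lower end of that list held PRDX4, the peroxiredoxin of the compartment and the list's most abundant gene, at 49.3 RPKM in H30 and 61.6 RPKM in CON (ratio 0.8004, 0.732 to 0.875). FKBP10, a proline isomerase that helps fold collagen, was lowest, at 2.99 RPKM in H30 and 5.19 RPKM in CON (0.575, 0.426 to 0.772). Fibroblast markers, summed over 9 matched of 10 listed, stood at 891 RPKM in H30 and 986 RPKM in CON, with 6 below 0 and 3 above, 3 past 1.2-fold lower, 0 past it higher and a median log2 ratio of -0.13. Of genes with a symbol, 6.68% were lower and 12.3% higher by that size. The fibroblast markers ran from PDGFRA (2.92 RPKM in H30, 3.94 RPKM in CON) to FBLN1 (13.4 RPKM in H30, 12.3 RPKM in CON). In whole muscle, fewer cells of a type and less RNA per cell cannot be told apart, and the part of fibroblasts in the values of FKBP10 or of the 5 genes was not tested.

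Of 24 measured degradation genes, SEL1L among them, 5 passed 1.2-fold on the higher side and 0 on the lower. The shares were 17.5% and 10.5% of all genes, and 12.3% and 6.68% of genes with a symbol. When centred the counts were again 5 and 0, against 8.23% and 9.71% of genes with a symbol. SEL1L is among the 5 higher genes and was chosen by its ratio, so the counts are a description. The median was 0.11, with 18 above 0, and 0.10 over the 23 genes other than SEL1L. FAM8A1, a cofactor of the SYVN1 ligase, had the highest log2 ratio, at 14.05 RPKM in H30 and 10.1 RPKM in CON (ratio 1.39, 1.06 to 1.83). UBE2J1, the ubiquitin-conjugating enzyme that works with SEL1L and SYVN1, came next at 6.93 RPKM in H30 and 4.97 RPKM in CON (1.396, 1.16 to 1.69). SEL1L followed. FAF2, which brings the ATPase VCP to the membrane, and the ligase RNF139 were the other two of the 5. FAF2 was at 3.76 RPKM in H30 and 2.79 RPKM in CON (1.35, 1.08 to 1.68). RNF139 was at 1.42 RPKM in H30 and 0.860 RPKM in CON. Without the pseudocount its RPKM ratio of 1.65 was the largest of the measured list genes, with an interval that holds 1 (0.978 to 2.84).

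Counting intervals lay above 1 for 10 of the 24 measured degradation genes and below 1 for 1. The shares were 20.1% and 10.1% of all genes with recovered reads, and the sets were not matched on level. Some degradation genes had ratios near or below 1. ERLEC1, a lectin that brings glycoproteins to SEL1L, was at 10.8 RPKM in H30 and 10.8 RPKM in CON (ratio 1.001, 0.902 to 1.11), and the lipid droplet and degradation factor AUP1 at 50.2 RPKM in H30 and 49.0 RPKM in CON (1.02, 0.954 to 1.1), a pair picked with their values known. UBE2J2, the sister enzyme of UBE2J1, was at 17.3 RPKM in H30 and 19.6 RPKM in CON (ratio 0.880, 0.782 to 0.989), and TMUB1 was lowest at 9.89 RPKM in H30 and 11.3 RPKM in CON. VCP, which pulls chains out of the membrane and was the most abundant gene of the list, was at 116 RPKM in H30 and 111 RPKM in CON (1.05, 1.003 to 1.09). SYVN1, which SEL1L binds, and DERL1, OS9, HERPUD1 and EDEM1 were not matched and are not analysed here, so the list lacks them.

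The sensors and factors of the unfolded protein response were split. Of 15 measured genes 3 passed 1.2-fold on the higher side and 4 on the lower (1 and 4 when centred), with a median of 0.03. Genes with a symbol passed it in 12.3% higher and 6.68% lower (8.23% and 9.71% when centred). XBP1, the factor that drives degradation genes once its messenger RNA is spliced, was at 26.6 RPKM in H30 and 21.8 RPKM in CON (ratio 1.22, 1.07 to 1.39). These values do not separate spliced from unspliced messenger RNA. The kinase EIF2AK3 (PERK) was at 1.72 RPKM in H30 and 1.49 RPKM in CON, and ATF6, the sensor that is cut into a transcription factor for HSPA5, was at 5.56 RPKM in H30 and 5.57 RPKM in CON. Both intervals hold 1.

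PPP1R15B and PPP1R15A, the phosphatase subunits that reverse the translation block set by EIF2AK3, were the 2 highest. PPP1R15B was at 4.93 RPKM in H30 and 3.74 RPKM in CON (ratio 1.32, 1.16 to 1.50), and PPP1R15A at 11.4 RPKM in H30 and 9.17 RPKM in CON (1.25, 1.11 to 1.404). ATF5, a stress factor of the bZIP family, was lowest, at 6.18 RPKM in H30 and 9.40 RPKM in CON (0.657, 0.554 to 0.779). CREB3L1, a membrane-bound factor known for collagen secretion, was next at 1.86 RPKM in H30 and 2.61 RPKM in CON (0.713, 0.552 to 0.918). NFYC, a subunit of the factor that binds CCAAT boxes of chaperone promoters, was the most abundant at 30.7 RPKM in H30 and 29.2 RPKM in CON. ERN1, ATF4 and DDIT3 are not analysed here.

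**Figure D3:**
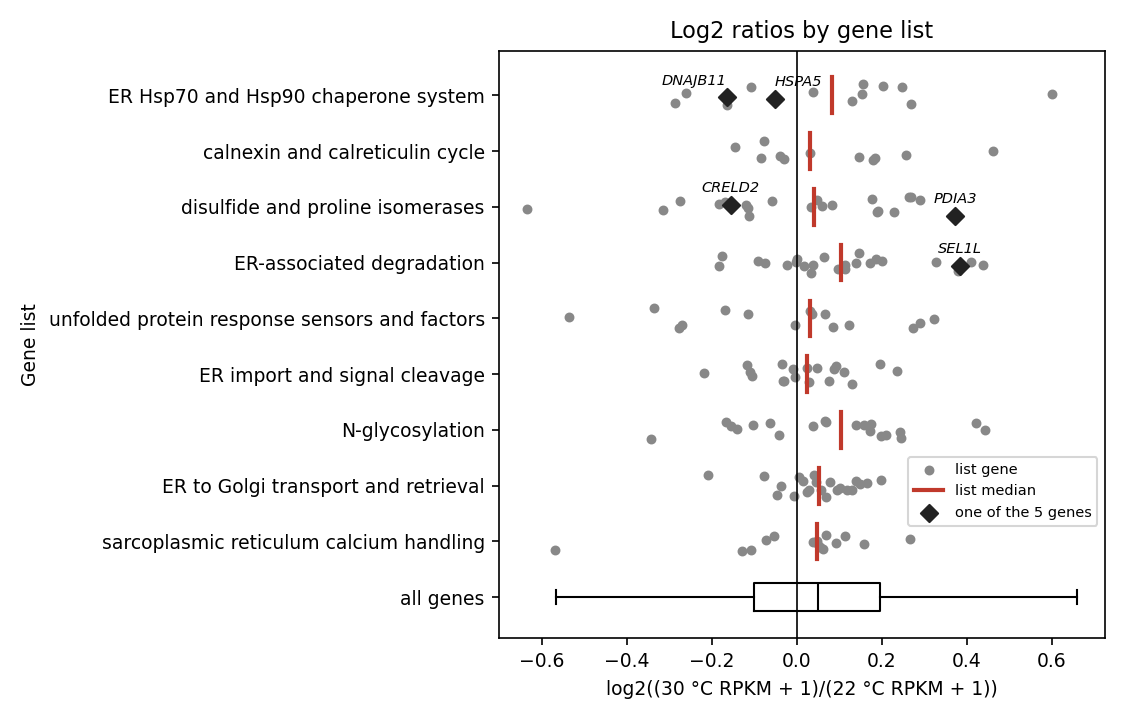
Log2 ratio of each measured gene (points) in 9 lists, with the list median (red bar), the 5 genes (black diamonds) and, at the bottom, the box of all 13191 genes with its median and quartiles and whiskers over 95% of genes. PDIA3 and SEL1L, chosen for high ratios, lie near the upper end of their lists (0.37 and 0.39), DNAJB11 and CRELD2, chosen for low ratios, below 0 (both -0.16), and the list medians run from 0.02 to 0.11.

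Over the 5 lists of folding, degradation and response genes, 86 genes were measured of 132 listed. Of these, 15 (17.4%) passed 1.2-fold on the higher side and 8 (9.30%) on the lower, close to the shares of all genes and somewhat above those of genes with a symbol. When centred, 9 were higher and 9 lower. The median log2 ratio was 0.04. Without the 5 genes, 13 of 81 were higher and 8 lower by that size. Counting intervals lay above 1 for 30 of the 86 and below 1 for 11, against 20.1% and 10.1% of all 13008 genes with recovered reads; intervals narrow with more reads, and the sets were not matched on level.

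**Figure D4:**
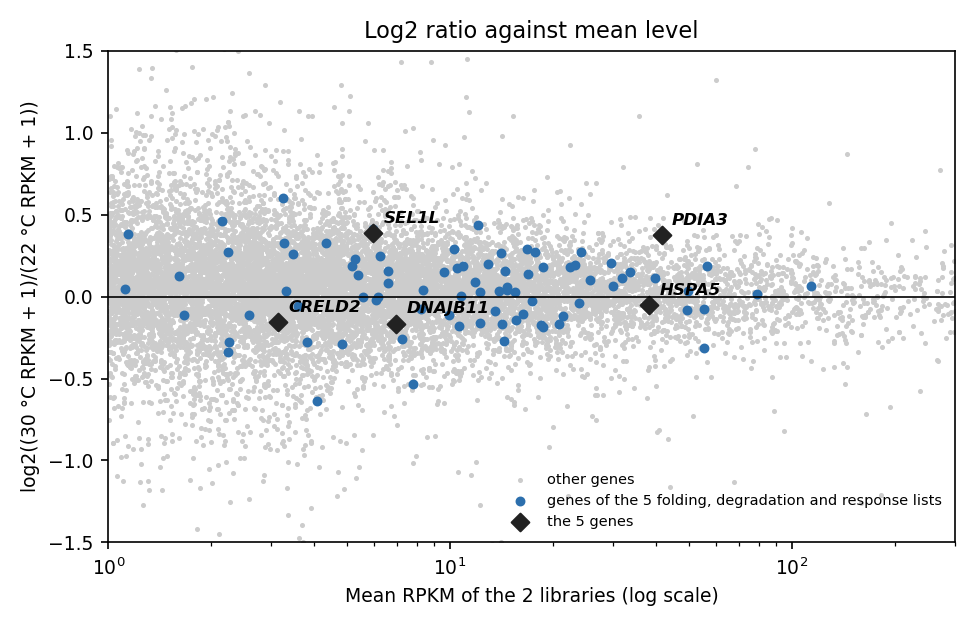
Log2 ratio against mean RPKM of the 2 libraries (log axis) for the 5 genes (black diamonds), the other genes of the 5 lists (blue) and all other genes (grey). Genes above 300 RPKM or beyond 1.5 in log2 ratio are not drawn. PDIA3, at a mean of 41.6 RPKM and a log2 ratio of 0.37, lies above the blue points of like level. The 5 genes were chosen with their ratios known.

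The share of genes past 1.2-fold was smaller among more abundant genes. Of genes with a mean of at least 5 RPKM, 11.4% were higher and 7.93% lower by that size, and PDIA3, SEL1L, HSPA5 and DNAJB11 belong to these. CRELD2, with a mean of 3.13 RPKM, does not.

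Few genes of the steps before and after folding passed 1.2-fold, which 12.3% of genes with a symbol passed higher and 6.68% lower. Of 19 measured genes for import and signal cleavage, 0 were past 1.2-fold in either direction (1 lower when centred), with a median of 0.02. SRP19, of the signal recognition particle, was highest at 9.94 RPKM in H30 and 8.30 RPKM in CON, and SSR4, of the translocon-associated complex, lowest at 269 RPKM in H30 and 313 RPKM in CON (ratio 0.860, 0.821 to 0.9001). SRP14, next highest, was at 2.92 RPKM in H30 and 2.42 RPKM in CON, and the signal peptidase subunit SPCS1, next lowest, at 41.6 RPKM in H30 and 45.1 RPKM in CON. SRP14 had at least 7 reads in H30 and 6 in CON. Its interval of 0.347 to 4.34 holds 1 and may be far too wide. Of 22 transport and retrieval genes, 0 were past 1.2-fold and 17 were above 0, with a median of 0.05. The COPII coat gene SEC13 was lowest, at 17.8 RPKM in H30 and 20.8 RPKM in CON, and the cargo receptor TMED9 highest, at 42.7 RPKM in H30 and 37.0 RPKM in CON. The COPI coat genes ARCN1 (26.9 RPKM in H30, 23.8 RPKM in CON) and COPG1 (18.9 RPKM in H30, 19.9 RPKM in CON) stood beside them, and BCAP31 was the most abundant (242 RPKM in H30, 243 RPKM in CON). ARCN1 had at least 12 reads in H30 and 11 in CON. Its interval of 0.455 to 2.82 holds 1 and may be far too wide. The list holds KDELR1, the receptor that returns HSPA5 and PDIA3 to the compartment, at 26.7 RPKM in H30 and 24.0 RPKM in CON (1.11, 1.02 to 1.22).

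Genes of N-glycosylation, which makes the glycans PDIA3's partners bind, had a median of 0.10 over 20 measured genes, with 2 at least 1.2-fold higher and 1 lower. Genes with a symbol were 12.3% higher and 6.68% lower by that size. The mannosyltransferase genes ALG9 (1.94 RPKM in H30, 1.16 RPKM in CON) and ALG3 (7.58 RPKM in H30, 9.87 RPKM in CON) were the ends of the list. The interval lay below 1 for ALG3 (0.648 to 0.908) and held 1 for ALG9. OSTC, a subunit of the oligosaccharyltransferase, was at 13.2 RPKM in H30 and 9.55 RPKM in CON, DPAGT1, which starts the glycan, at 3.79 RPKM in H30 and 4.38 RPKM in CON, and KRTCAP2, the most abundant, at 67.0 RPKM in H30 and 59.3 RPKM in CON. OSTC had at least 4 reads in H30 and 3 in CON. Its interval of 0.233 to 9.40 holds 1 and may be far too wide.

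The 15 matched sarcoplasmic reticulum genes of calcium handling summed to 15853 RPKM in H30 and 15312 RPKM in CON, most of it from SLN, ATP2A1 and CASQ1. Their median was 0.05, with 1 gene past 1.2-fold in each direction (0 higher and 1 lower when centred). By comparison, 12.3% of genes with a symbol were higher and 6.68% lower (8.23% and 9.71% when centred). The calcium pump ATP2A1 was at 3991 RPKM in H30 and 4367 RPKM in CON. SELENON, a selenoprotein of the reticulum membrane, was lowest at 6.02 RPKM in H30 and 9.41 RPKM in CON. It had at least 26 reads in H30 and 42 in CON. Its interval of 0.376 to 1.07 holds 1 and may be far too wide. ITPR2, a calcium release channel, was highest at 2.51 RPKM in H30 and 1.92 RPKM in CON (1.31, 1.12 to 1.53). Sarcolipin, SLN, an inhibitor of the pump, was most abundant, at 7356 RPKM in H30 and 6590 RPKM in CON.

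Markers of other cell types were scarce for plasma cells, mixed for endothelium, and mostly lower in H30 for adipocytes. Measured macrophage markers were either higher in H30 or had a log2 ratio near 0. The 4 matched of 8 plasma cell markers summed to 2.14 RPKM in H30 and 1.296 RPKM in CON, all under a mean of 1 RPKM. The 6 matched of 8 macrophage markers summed to 14.3 RPKM in H30 and 10.4 RPKM in CON. The measured ones ran from CD14 (2.37 RPKM in H30, 2.51 RPKM in CON) to the lysozyme LYZ (3.29 RPKM in H30, 1.09 RPKM in CON). CD68, the most abundant, was at 5.36 RPKM in H30 and 3.61 RPKM in CON. Of 4 measured macrophage markers, 2 lay above 0 and 2 below, with a median log2 ratio of 0.23. On the higher side 2 passed 1.2-fold, LYZ (1.89 to 4.96) and CD68 (1.11 to 1.99), and 0 on the lower. The shares of genes with a symbol were 12.3% and 6.68%. Endothelial markers summed to 155 RPKM in H30 and 138 RPKM in CON over 5 of 8, from TIE1 (5.02 RPKM in H30, 5.57 RPKM in CON) to TEK (6.67 RPKM in H30, 5.37 RPKM in CON). Most of both sums was PECAM1, at 127 RPKM in H30 and 111 RPKM in CON. Of the 5 endothelial genes, 3 lay above 0 and 2 below. Adipocyte markers summed to 17.0 RPKM in H30 and 25.4 RPKM in CON over 4 of 9, from CIDEC (3.48 RPKM in H30, 7.56 RPKM in CON) to ADIG (1.05 RPKM in H30, 1.02 RPKM in CON). Their median log2 ratio was -0.36, with 3 below 0 and 1 above. Of the 4, 2 were past 1.2-fold lower and 0 higher, against 6.68% and 12.3% of genes with a symbol. ADIG, the 1 above 0, rests on at least 3 reads in each library. The 9 matched of 14 fibre markers had a median log2 ratio of 0.03, from TNNC2 (21011 RPKM in H30, 22523 RPKM in CON) to TNNC1 (2793 RPKM in H30, 2298 RPKM in CON). The part of these cell types in the values of PDIA3 and SEL1L was not tested.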

How the data were processed

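Messenger RNA of 1 library per temperature was measured after poly(A) selection from 3 µg of total RNA, per the labels' protocols. The authors deposited 1 RPKM value per gene and library. Bowtie, TopHat 1.4.0, Cufflinks 1.3.0 and Sscrofa10.2 appear in the list of tools and builds, per the submitters' processing notes, which give no role. The labels do not say how reads were counted or gene lengths set, and genes with near-identical copies could share reads. Symbols came from a table of pig gene names that matched 11374 of 27987 entries.

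The log2 ratio used a pseudocount of 1 RPKM, which understates differences of scarce genes. Whole reads were recovered for 99.1% of 19550 entries above 0 in both libraries. These are the smallest reads that fit the values and, where one was found, a whole gene length. The true reads can therefore be a multiple and the intervals too wide, far too wide for some genes. Ratio intervals are Clopper-Pearson and level intervals Poisson (95%). For pairs of genes the exact conditional interval was used. The steps were tested on simulated data. Python 3.11.15 with scipy 1.17.1 was used.

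The 5 genes, the 15 lists and the size of 1.2-fold were chosen with earlier results of these data known. Named by rule are the 5 genes, their matched partners among 24 fixed ones, and in each pathway list the 2 highest and 2 lowest by log2 ratio and the most abundant, and in each marker list the highest and lowest. Some genes outside this rule were picked with their values known. These are DNAJC1, DNAJC3, DNAJC10, SEC63, PDIA5, ERLEC1, AUP1, FAF2, RNF139, CASQ1, CD68, PECAM1 and ACTA1. Alternatives covered pseudocount, scaling, filter and repeated symbols. Neighbouring genes are from RefSeq, by name only.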

Additional observations from a re-analysis of the deposited data

How the results depend on the processing

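The log2 ratios of the 5 genes kept their sign and stayed within their counting error under the 7 alternatives each was run on (pseudocounts of 0.1, 5 and none, 3 rescalings, and entries of a symbol summed). They ran from 0.32 to 0.42 for PDIA3, 0.24 to 0.45 for SEL1L, -0.11 to -0.01 for HSPA5, -0.22 to -0.11 for DNAJB11 and -0.20 to -0.08 for CRELD2. With a pseudocount of 5 SEL1L, at 0.24, was no longer past 1.2-fold. Past 1.2-fold lay 2312 genes on the higher and 1382 on the lower side, against 1746 higher and 1820 lower with median centring, 1735 higher and 1780 lower with a trimmed mean, and 2835 higher and 1170 lower once totals left out the 10 most abundant genes. A pseudocount of 5 left 749 higher and 517 lower, no filter gave 3757 higher and 2158 lower, and a mean of at least 5 RPKM gave 734 higher and 509 lower. They were 858 and 467 over genes with a symbol and 900 and 427 over genes with at least 100 recovered reads in both libraries, and both of these restrictions, like the dropped pseudocount, were chosen after seeing the data. Fewer or more genes are compared under each filter, and a larger pseudocount by its formula brings every log2 ratio nearer to 0. Some list medians moved by more than their approximate counting error. The degradation median was 0.056 when centred and 0.048 by trimmed mean, the isomerase median -0.0088 when centred and -0.0097 by trimmed mean, and the calnexin median -0.024 by trimmed mean, -0.030 with a mean of at least 5 RPKM and 0.089 with no filter. The response (lowest -0.03), import (-0.03) and calcium (-0.003) medians also passed below 0 in some settings. The rescalings put the median of all genes between 0.00 and 0.09. No paired analysis was possible because each temperature has 1 library. Depth is lowest for CRELD2, with at least 100 reads in H30 and 119 in CON.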
